A study of Mus musculus with 7 samples.

Results

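The bone morphogenetic protein (BMP) genes described here were 10 members of 1 signalling family: the ligands Bmp2, Bmp4, Bmp5 and Bmp7, the type I receptors Bmpr1a, Bmpr1b and Acvr1, and the type II receptors Bmpr2, Acvr2a and Acvr2b. They were chosen by name, as the table entries whose gene symbol is one of these, and all 10 were found among the 13701 genes of the deposited count table. Polyadenylated RNA was sequenced from E11.5 mouse ventricles of mixed strain background, in a study of the loss of Hand1, which encodes a helix-loop-helix DNA-binding protein active in ventricular myocardium. The Hand1 knockout group (Nkx Cre +/-; H1flox/flox, 2 libraries) carried floxed Hand1 and a Cre recombinase allele named for Nkx2.5. The flox controls (Nkx Cre wt; H1flox/flox, 2 libraries) carried floxed Hand1 without Cre, and the Cre controls (Nkx Cre +/-; wt, 3 libraries) carried Cre with wild-type Hand1. No embryo received a treatment.

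The knockout and the flox controls thus shared floxed Hand1 and differed by the Cre allele and the recombination it brings about. The knockout and the Cre controls shared the Cre allele and differed by floxed Hand1. Both comparisons use the same knockout libraries, so they are not independent of each other. Cre named for Nkx2.5 acts in the cardiac lineages that express that gene, and cells of the ventricle outside those lineages keep Hand1. The labels give no litters, and p-values measure the spread between these libraries, which may include litter and handling. In bulk tissue, fewer cells of a type and less RNA per cell cannot be told apart.

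BMP ligands are secreted dimers that assemble type I and type II serine/threonine kinase receptors. The type II receptor phosphorylates the type I receptor, which in turn phosphorylates the receptor SMADs, and these enter the nucleus with Smad4. In the embryonic heart, BMP signals from the myocardium act on cushion formation, outflow tract septation and growth of the ventricular wall. The type II receptors Acvr2a and Acvr2b also bind activins, and Bmpr2 is more selective for BMPs.

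The deposited counts summed to between 18975283 (knockout replicate 2) and 28346700 (knockout replicate 1) per library. Hand1 itself, the targeted gene, had 1.29 and 1.14 CPM (read counts scaled to library size) in the knockout libraries. It had 34.1 and 47.6 CPM in the flox controls and 94.7, 66.3 and 82.6 CPM in the Cre controls, so that it was lowest in both libraries labelled as knockout. Hand1 was also lower in both flox controls than in every Cre control, so the control groups differed in the targeted gene. The cause of that difference was not tested. Knockout replicate 2 stood apart: its highest correlation of log2 CPM across genes with another library was 0.927, against at least 0.978 for each other library. Summed CPM of 7 cardiomyocyte markers lay between 17000 (knockout replicate 2) and 29400. Of these, Myh7 had 1210 CPM in knockout replicate 2 and 5370 to 12400 in the others, and Nppa fell in the knockout by DESeq2 (adjusted p = 6.78e-04 and 2.74e-04 against flox and Cre controls). Myl2 (4980 and 7400 CPM in the knockout, 3790 to 4680 in the controls) and Myl3 (2120 and 2900, and 1580 to 2050) were higher. DESeq2 called neither of them. Log2 changes were above 0 for 3 and 2 of the 7 markers against flox and Cre controls. No measured marker of the cell types examined was at 0 in any library. By Xist counts, 4 libraries were female, both knockouts among them, along with replicate 2 of each control group.

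The results turned on 3 members, Bmp4, Acvr2b and Bmpr1b, and the DNA around their start sites is shown to place the E-boxes, the CANNTG elements to which basic helix-loop-helix factors such as HAND1 bind with their partners. Each is a 300-base window of the RefSeq promoter table (build GRCm38.p6), read 5′ to 3′ on the strand of the gene, with E-boxes in capitals. The Bmp4 window is chr14:46390620-46390919 on the minus strand, and its RefSeq start site lies 70 bases upstream of the deposited 5′ end of the gene. The Acvr2b window is chr9:119401928-119402227 on the plus strand, with a start site 323 bases upstream of the deposited 5′ end. The Bmpr1b window is chr3:141982215-141982514 on the minus strand and surrounds the most upstream of the RefSeq start sites in the table, 186964 bases inside the deposited gene.
Bmp4: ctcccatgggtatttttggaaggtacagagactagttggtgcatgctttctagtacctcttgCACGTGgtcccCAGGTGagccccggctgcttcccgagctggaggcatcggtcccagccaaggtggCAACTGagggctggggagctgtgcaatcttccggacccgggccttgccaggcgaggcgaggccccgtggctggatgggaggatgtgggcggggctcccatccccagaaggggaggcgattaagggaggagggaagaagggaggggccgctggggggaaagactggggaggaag
Acvr2b: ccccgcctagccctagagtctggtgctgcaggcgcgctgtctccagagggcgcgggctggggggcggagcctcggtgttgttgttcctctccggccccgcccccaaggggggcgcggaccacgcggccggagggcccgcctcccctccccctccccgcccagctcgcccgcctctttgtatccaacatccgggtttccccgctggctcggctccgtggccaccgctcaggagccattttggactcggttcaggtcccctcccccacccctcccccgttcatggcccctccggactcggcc
Bmpr1b: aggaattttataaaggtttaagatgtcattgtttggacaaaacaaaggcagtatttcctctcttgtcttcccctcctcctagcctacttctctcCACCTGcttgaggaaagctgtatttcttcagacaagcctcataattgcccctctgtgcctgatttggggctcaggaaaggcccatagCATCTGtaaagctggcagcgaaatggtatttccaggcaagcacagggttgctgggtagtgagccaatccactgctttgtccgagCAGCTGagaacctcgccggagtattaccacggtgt

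The Bmp4 window held 3 E-boxes, the first of them the palindrome CACGTG. The Bmpr1b window shown also held 3, and the windows at its further RefSeq start sites held 0 and 1. The Acvr2b window held 0, as did those of Bmp5, Bmpr1a, Acvr1, Bmpr2 and Acvr2a. A CANNTG match falls at the same place on both strands, and 72.3% of 32851 promoters of this length held at least 1, so its presence is common. The HAND-type element CGTCTG and its variant CATCTG, which is also a CANNTG, were searched on both strands and occurred in 7.35% and 17.2% of promoters. Among the windows of the 8 members in the table, CGTCTG occurred in that of Acvr2a and CATCTG in the one of Bmpr1b shown. These matches describe letters in the windows and say nothing of binding. Bmp2 and Bmp7 were not matched.

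In the 5 control libraries the member levels were compared per kilobase of deposited exon length. Bmp7 stood first at 55.3 ± 7.42 CPM per kb (SD, n = 5), followed by the type I receptor Bmpr1a at 45.1 ± 9.43. Bmp4 (19.4 ± 6.22) and Acvr1 (19.2 ± 2.66) came next on the same scale, then Bmp5 (13.2 ± 0.403), Bmpr2 (12.4 ± 3.56), Bmp2 (10.8 ± 2.44), Acvr2b (9.51 ± 1.5) and Acvr2a (7.74 ± 1.33). Bmpr1b was last at 0.902 ± 0.604 CPM per kb. The control ranges of neighbours in this order overlapped except between Bmpr1a and Bmp4, Acvr1 and Bmp5, and Acvr2a and Bmpr1b. Bmp10, a trabecular myocardial BMP outside the 10, was at 60.8 CPM per kb over all 7 libraries.

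**Figure D1:**
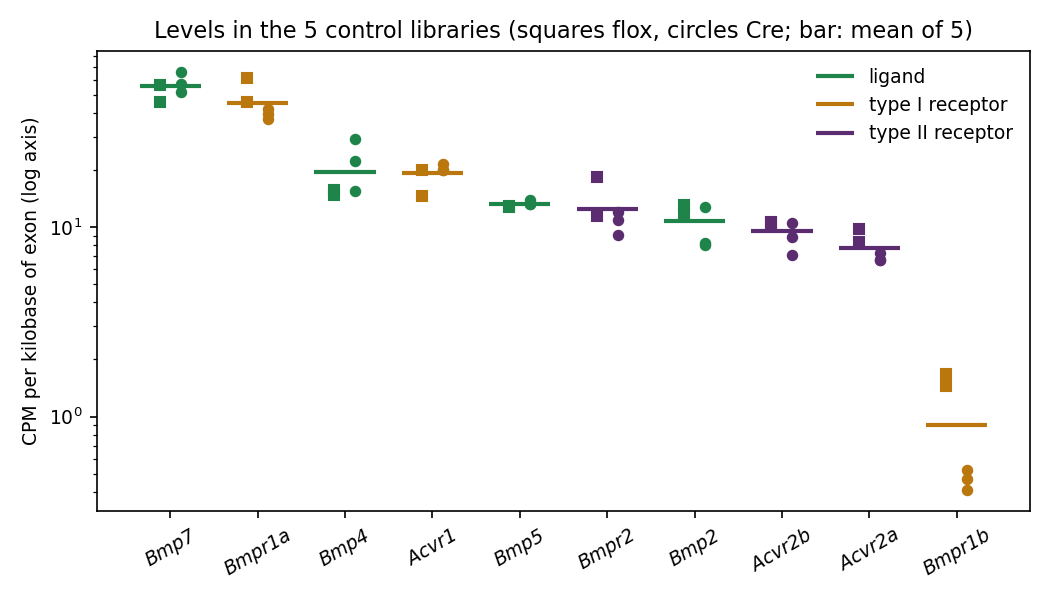
Level of each member in the 5 control libraries, in CPM per kilobase of exon on a logarithmic axis, with 1 point per library and the mean of the libraries. Bmp7 and Bmpr1a lie highest, at means of 55.3 and 45.1, and Bmpr1b lies lowest, at 0.902.

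Bmp7 made up 48.5 to 64.0% of the summed per-kilobase level of the 4 ligands in the controls. Its share was 72.9% in knockout replicate 1 and 44.3% in knockout replicate 2. Bmp4 made up 14.9 to 27.2% of the ligand level in controls and 6.80 and 12.2% in the knockout libraries, below every control. Bmpr1a was 64.3 to 79.2% of the type I receptor level in the controls. Acvr2b was 27.3 to 40.0% of the type II receptor level in controls and 23.4 and 7.64% in the knockout libraries. Acvr2b itself was at 4.45 and 4.89 CPM per kb in knockout replicates 1 and 2. The type II receptor sum was 19 and 63.9 there, with Bmpr2 at 8.15 and 39.2. The smaller share in replicate 2 thus came with a larger sum, not with a lower Acvr2b.

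The comparison of knockout with each control group asks how the 10 genes differed when Hand1 was deleted. By edgeR's quasi-likelihood test on all 7 libraries, 0 of 10 members had an adjusted p below 0.05 in any comparison. The background was 0.0146% of 13695 genes called against flox controls, 0.0146% against Cre controls and 0% between the control groups. At an unadjusted p below 0.05 edgeR marked 3, 2 and 1 members in those comparisons, beside 8.36, 15.4 and 3.13% of all genes, so the count against Cre controls was near the background. DESeq2 on the same libraries called 2 members against flox controls (Acvr2b and Bmpr1b), where 2.21% of genes were called. It called 2 against Cre controls (Acvr2b and Bmp4), where 4.05% were called, and 1 between the control groups (Bmpr1b), where 0.533% were called. All 4 calls against a control group were of lower expression in the knockout, with 1.53 and 2.46% of genes called lower against flox and Cre controls.

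**Figure D2:**
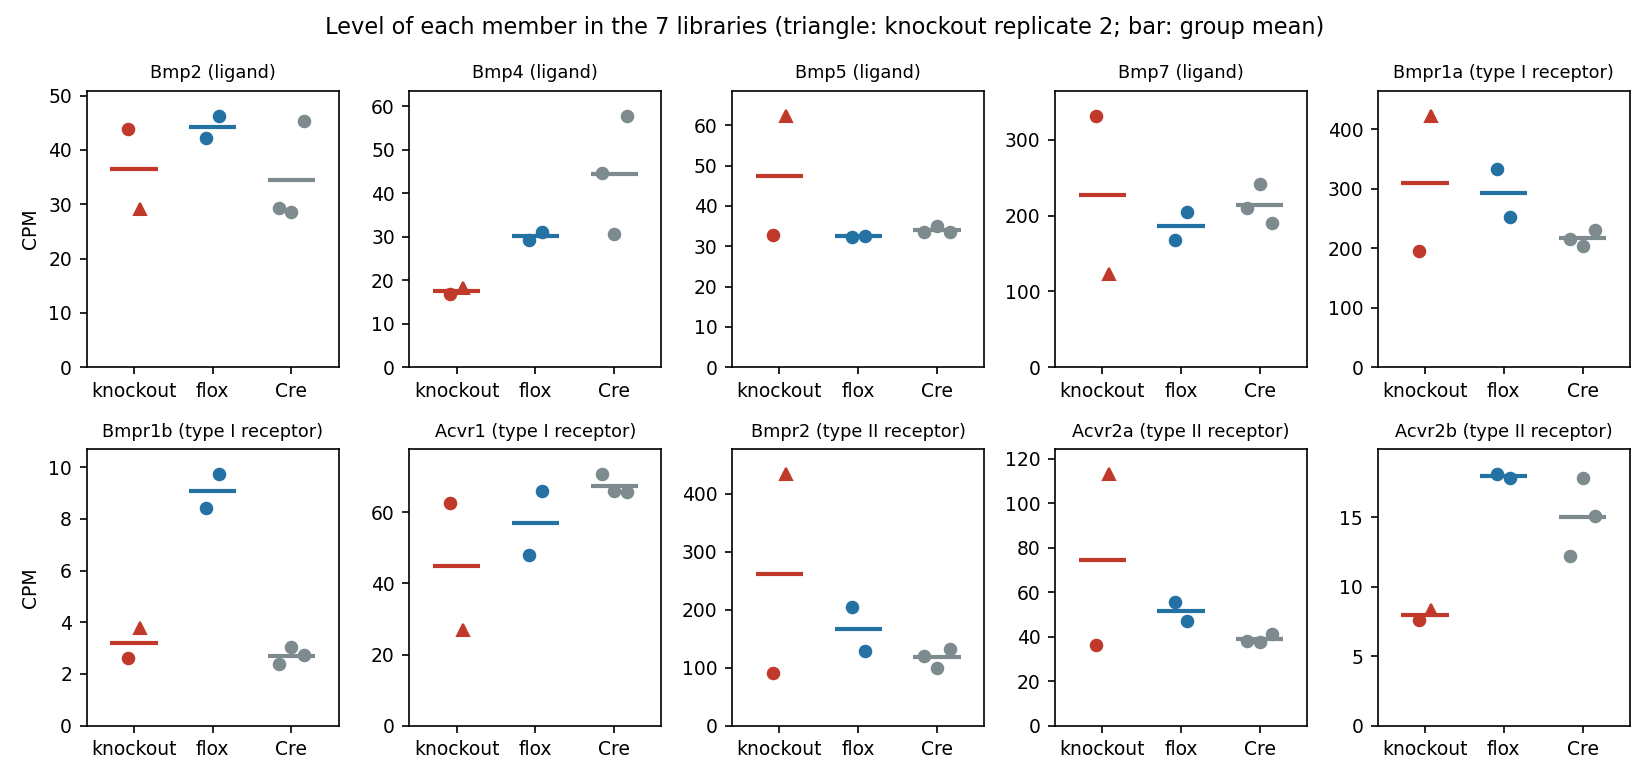
CPM of each of the 10 members in the 7 libraries, with 1 point per library, coloured by group, on a linear axis from 0 for each gene. Bmp4 and Acvr2b are lower in both knockout libraries than in every control, and Bmpr1b is higher in both flox controls than in every library carrying Cre.

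Among the ligands, Bmp4 was the member with lower expression in the knockout. Bmp4 is expressed in the outflow tract and atrioventricular myocardium and takes part in septation and cushion formation. It had 16.8 and 18.3 CPM in the knockout libraries, 29.2 and 31.1 CPM in the flox controls, and 44.6, 30.6 and 57.8 CPM in the Cre controls. Both knockout libraries lay below all 5 controls, and the Cre controls spread more widely than the other groups.

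Against Cre controls Bmp4 fell by DESeq2 (log2 fold change -1.31 ± 0.32 SE, adjusted p = 0.00327). EdgeR gave -1.34 ± 0.29 with an adjusted p of 0.222, on a mean of 17.6 ± 1.05 CPM in the knockout (SD, n = 2) and 44.4 ± 13.6 in the Cre controls (SD, n = 3). Against flox controls, whose mean was 30.2 ± 1.33 CPM, neither tool called Bmp4 (edgeR -0.78 ± 0.30, adjusted p = 0.580, and DESeq2 -0.75, adjusted p = 0.339). The DESeq2 call against Cre controls did not survive omission of Cre control replicate 1 (adjusted p = 0.121) or replicate 3 (0.139), with log2 changes of -1.51 to -1.07 across all single omissions. Without knockout replicate 1 the DESeq2 adjusted p was 9.91e-05, and without knockout replicate 2 it was 5.80e-04. Such fits leave 1 knockout library, which is assumed to vary like the control groups, so their p-values carry no spread between knockouts. With only the compared groups in the DESeq2 fit, Bmp4 was called against Cre controls (adjusted p = 0.0329), where 1.95% of genes were, and not against flox controls. In the authors' deposited table for the knockout against Cre controls, Bmp4 had a log2 fold change of -1.36 with a false discovery rate of 0.0353.

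Bmp2, which is expressed in atrioventricular canal myocardium and drives cushion formation, had 43.9 and 29.1 CPM in the knockout libraries. It had 42.2 and 46.3 CPM in the flox controls and 29.3, 28.6 and 45.4 CPM in the Cre controls. The 3 groups overlapped, and edgeR log2 changes in the knockout were -0.28 ± 0.31 and 0.09 ± 0.29 against flox and Cre controls, with adjusted p of 0.746 and 0.856.

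Bmp5 and Bmp7 are myocardial ligands of 1 subgroup that act redundantly in the early mouse heart. Bmp5 was even in the 5 controls, at 32.4 to 34.9 CPM, and had 32.7 and 62.4 CPM in knockout replicates 1 and 2. Only the second knockout library lay above the controls by more than their range: the first lay within it. Bmp7 had 332 and 123 CPM in the knockout libraries, 168 and 205 CPM in the flox controls, and 210, 242 and 190 CPM in the Cre controls. The knockout libraries fell on opposite sides of all 5 controls.

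Neither ligand was called by edgeR or DESeq2 on all 7 libraries. For Bmp5 the edgeR log2 changes were 0.55 ± 0.30 and 0.48 ± 0.27 against flox and Cre controls (adjusted p = 0.603 and 0.373), and for Bmp7 they were 0.29 ± 0.46 and 0.09 ± 0.42 (adjusted p = 0.813 and 0.902). The size for Bmp5 depended on the knockout library. With replicate 2 as the lone knockout library edgeR gave 0.95 and 0.88, and with replicate 1 alone 0.03 and -0.03. The direction of Bmp7 depended on the knockout library, as its values show. With knockout replicate 2 as the lone knockout library, edgeR gave -0.60 (adjusted p = 0.041) and -0.80 (adjusted p = 0.00945) against flox and Cre controls, and DESeq2 gave -0.58 and -0.78 (adjusted p = 0.0178 and 3.74e-04). With knockout replicate 1 alone, both tools gave 0.85 and 0.66, called by DESeq2 (adjusted p = 0.00269 and 0.0319) and not by edgeR (0.101 and 0.185).

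Of the type II receptors, Acvr2b was lower in the knockout against both control groups. Acvr2b binds activins and Nodal as well as BMPs, and in the mouse it is needed for left-right patterning and normal cardiac septation. It had 7.57 and 8.31 CPM in the knockout libraries, 18.1 and 17.8 CPM in the flox controls, and 12.2, 17.8 and 15.1 CPM in the Cre controls. The knockout libraries lay close together and below all 5 controls.

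Group means were 7.94 ± 0.520 CPM in the knockout (SD, n = 2), 17.9 ± 0.199 in the flox controls (n = 2) and 15 ± 2.81 in the Cre controls (n = 3). DESeq2 gave log2 changes of -1.14 ± 0.27 against flox controls (adjusted p = 0.00307) and -0.90 ± 0.25 against Cre controls (adjusted p = 0.0122). EdgeR gave -1.17 ± 0.22 and -0.92 ± 0.21 with adjusted p of 0.321 and 0.233. Acvr2b was the only member that DESeq2 called against both control groups. The share of all genes so called was not computed. In the authors' deposited table, which covers the Cre controls, Acvr2b had a log2 fold change of -0.94 with a false discovery rate of 0.0411. Bmp4 and Acvr2b were the 2 members below 0.05 in the authors' deposited table, where 1439 genes (10.5%) were.

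The Acvr2b call rested on having every control library. DESeq2 lost it against flox controls without any 1 of the 5 controls: omitting flox control replicate 1 or 2 gave an adjusted p of 0.718 or 0.708, and omitting Cre control replicate 1, 2 or 3 gave 0.0708, 0.0833 or 0.187. Against Cre controls it was likewise lost, at 0.133 without either flox control and 0.0887, 0.368 and 0.340 without Cre control replicates 1, 2 and 3. Without knockout replicate 1 the DESeq2 adjusted p was 8.56e-04 and 0.00664, and without knockout replicate 2 it was 0.0013 and 0.0164, each from a lone knockout library with the spread of the controls. The size of the change moved little, from -1.22 to -1.08 against flox controls and from -1.02 to -0.75 against Cre controls. With only the compared groups in the DESeq2 fit, Acvr2b had an adjusted p of 1 against flox controls and 0.128 against Cre controls. That setting called 0.0586% of genes against flox controls, 1.95% against Cre controls and 2.89% between the controls.

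With the 5 controls taken as 1 group, DESeq2 called Acvr2b (-1.0 ± 0.22, adjusted p = 8.42e-04) and Bmp4 (-1.11 ± 0.33, adjusted p = 0.0246), where it called 6.87% of all genes and 3.5% as lower. EdgeR called neither, with 0.0292% of genes called, and gave -1.03 ± 0.20 (adjusted p = 0.166) and -1.14 ± 0.32 (adjusted p = 0.227). These 2 were also the members whose knockout libraries both lay below all 5 controls, a pattern that 11.6% of all genes tested showed. No member had both knockout libraries above all 5 controls, which 8.19% of genes did.

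Bmpr2, the BMP type II receptor, had 90.4 and 434 CPM in the knockout libraries, 204 and 128 CPM in the flox controls, and 121, 100 and 133 CPM in the Cre controls. Knockout replicate 1 was below every control and knockout replicate 2 above every control. Acvr2a, which binds activins and BMPs, had 36.3 and 113 CPM in the knockout libraries, 55.7 and 47.2 CPM in the flox controls, and 38.1, 37.8 and 41.2 CPM in the Cre controls. It showed the same split, with 1 knockout library below and 1 above all controls.

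EdgeR called neither gene. Bmpr2 had log2 changes of 0.66 ± 0.68 and 1.15 ± 0.61 against flox and Cre controls (edgeR adjusted p = 0.726 and 0.359), and Acvr2a had 0.54 ± 0.49 and 0.93 ± 0.44 (adjusted p = 0.694 and 0.331). Without knockout replicate 1, edgeR called Bmpr2 higher by 1.39 and 1.88 (adjusted p = 0.00471 and 5.83e-04) and Acvr2a higher by 1.13 and 1.53 (adjusted p = 0.00111 and 2.72e-04). Without knockout replicate 2, DESeq2 called Bmpr2 lower against flox controls, at -0.86 (adjusted p = 0.0342).

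Among the type I receptors, Bmpr1b differed between the control groups. Bmpr1b is known for its part in limb cartilage and ovary. It had 8.43 and 9.73 CPM in the flox controls, 2.38, 3.04 and 2.72 CPM in the Cre controls, and 2.62 and 3.79 CPM in the knockout libraries. Both Cre-negative flox libraries lay above all 5 libraries that carried Cre. The raw counts behind these values were 216 and 260 in the flox controls, 62, 85 and 72 in the Cre controls, and 75 and 63 in the knockout.

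Flox controls exceeded Cre controls 3.34-fold in edgeR (log2 1.74 ± 0.23, adjusted p = 0.366). DESeq2 called the difference (1.74 ± 0.28, adjusted p = 7.37e-07), where 0.394% of genes were called higher in the flox controls. EdgeR on the 5 control libraries alone also called it (1.75, adjusted p = 0.013), where 0.409% of genes were called. Omission of flox control replicate 2 ended the DESeq2 call on all libraries (adjusted p = 0.278). The edgeR call on control libraries ended when Cre control replicate 1 (adjusted p = 0.0914), 2 (0.0641) or 3 (0.108) was omitted, while DESeq2 on those libraries kept it without each of the 5.

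Against all 5 libraries with Cre as 1 group, Bmpr1b was 1.64 ± 0.22 higher in flox controls (log2, edgeR adjusted p = 0.523, DESeq2 adjusted p = 1.77e-07, with 0.126% of genes called higher). Bmpr1b was the 1 member with both flox libraries above all 5 others, as in 4.42% of genes tested. Bmp5 was the 1 member with both flox libraries below all 5 others, at 32.4 and 32.5 CPM against a lowest value of 32.7, as in 4% of genes. The neighbouring genes Unc5c and Pdlim5 on chromosome 3 differed between flox and Cre controls by 0.28 ± 0.32 and -0.00 ± 0.21 (log2, edgeR adjusted p = 0.999 and 1). Sample titles share a prefix between both knockout libraries and flox control replicate 2, where Bmpr1b stood at 2.62 and 3.79 against 9.73 CPM, and flox control replicate 1, with another prefix, had 8.43 CPM. What the prefix marks is not stated, and no library pairs the Cre controls with a Cre-negative sample of their own prefix. Between flox and Cre controls, the absence of Cre, the floxed Hand1 and the embryos' background cannot be told apart.

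Against flox controls Bmpr1b fell in the knockout by DESeq2 (-1.49 ± 0.31, adjusted p = 4.62e-04), and edgeR gave -1.51 ± 0.27 (adjusted p = 0.295). Against Cre controls edgeR gave 0.23 ± 0.24 (adjusted p = 0.575). Omission of flox control replicate 1 (adjusted p = 0.255) or 2 (0.586) ended the DESeq2 call, as did that of Cre control replicate 2 (0.0535) or 3 (0.0616). With only the compared groups in the DESeq2 fit the adjusted p was 1, and with a gene length offset the log2 change was -1.10 (adjusted p = 0.111).

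Bmpr1a, the main BMP type I receptor of the myocardium, had 195 and 423 CPM in the knockout libraries, 334 and 252 CPM in the flox controls, and 216, 203 and 231 CPM in the Cre controls. Acvr1, also called Alk2, is a type I receptor that acts in cushion formation. It had 62.6 and 26.9 CPM in the knockout libraries, 48.0 and 65.9 CPM in the flox controls, and 70.7, 66.0 and 65.7 CPM in the Cre controls. For both genes the knockout libraries differed more from each other than the controls of either group did.

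Bmpr1a had edgeR log2 changes of 0.08 ± 0.39 and 0.51 ± 0.35 against flox and Cre controls (adjusted p = 0.944 and 0.430). Acvr1 had -0.35 ± 0.40 and -0.59 ± 0.37 (adjusted p = 0.747 and 0.398). DESeq2 called neither in any comparison on all 7 libraries. Without knockout replicate 1, edgeR called Acvr1 lower, at -1.08 and -1.33 (adjusted p = 0.004 and 0.001), and Bmpr1a higher against Cre controls by 0.96 (adjusted p = 0.00305).

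**Figure D3:**
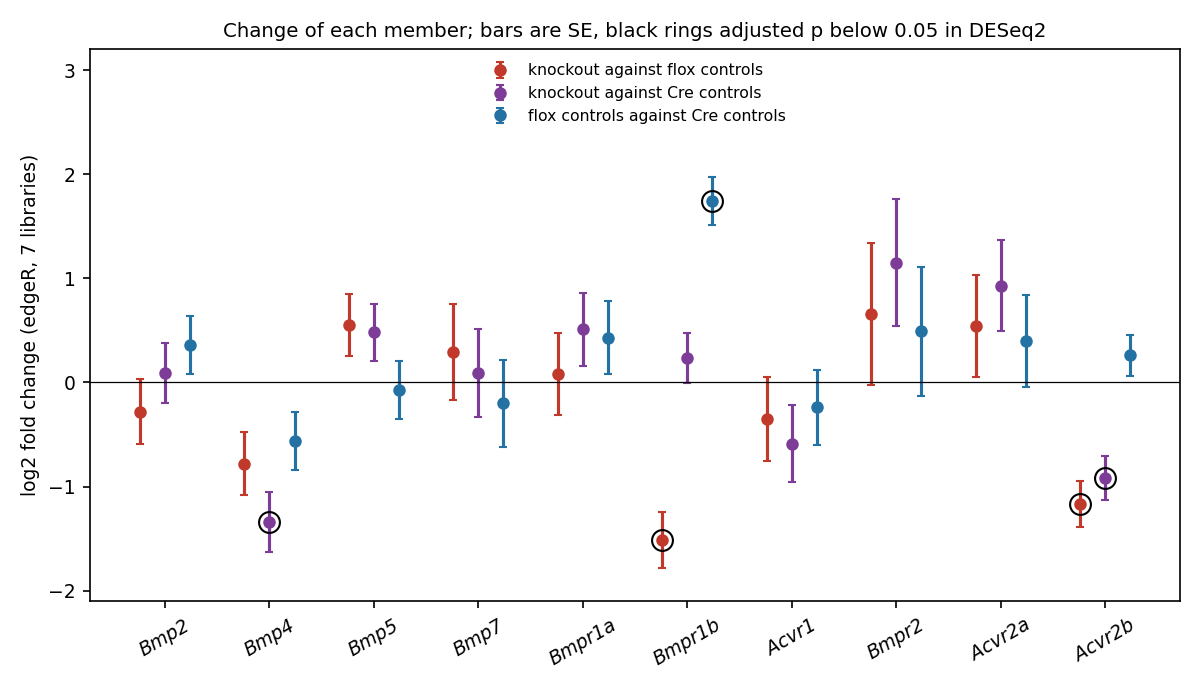
edgeR log2 fold change of each member with its standard error in the 3 comparisons, from the fit of all 7 libraries. Acvr2b and Bmp4 lie below 0 against both control groups, and Bmpr1b lies at -1.51 against flox controls and at 1.74 between the control groups.

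How many members were called depended on which knockout library was kept. With knockout replicate 2 as the lone knockout library, edgeR called 7 members against flox controls and 8 against Cre controls, but 55.1 and 64.3% of all genes were called too. DESeq2 then called 8 and 8 members, with 52.6 and 61.3% of genes called. Without knockout replicate 2, edgeR called 0 and 0 members (0.336 and 0.460% of genes) and DESeq2 called 4 and 3 (7.13 and 3.35%). The counts from knockout replicate 2 alone are to be read against that background of most genes.

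The 2 knockout libraries differed in a way that followed base composition. Knockout replicate 2 exceeded replicate 1 by 2.26 (log2) for Bmpr2, 1.63 for Acvr2a, 1.12 for Bmpr1a and 0.93 for Bmp5, whose transcripts have GC contents of 41.0, 39.9, 41.3 and 40.5%. It was lower by 1.43 for Bmp7 (log2 -1.43, GC 55.3%), 1.22 for Acvr1 (-1.22, GC 48.7%) and 0.59 for Bmp2 (-0.59, GC 52.5%). Bmp4 and Acvr2b, at 52.5 and 54.4% GC, differed by 0.12 and 0.13, and Bmpr1b, at 42.2%, by 0.52.

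Over all genes the median difference of the knockout libraries went from 1.54 (log2) in the lowest of 10 equal groups by GC content, median 39.8%, to -0.66 in the highest, median 59.5%. Between the flox replicates the same medians went from 0.46 to -0.16. Across the members, 5 of 10 differed by over 1 between the knockout libraries, against 39% of all genes. The median absolute difference of all genes was 0.79, against 0.26 between the flox replicates. After a smooth trend with gene length and GC content was removed, Bmpr2 still differed by 1.43 and Acvr1 by -0.98. The other members then differed by -0.46 to 0.56, with Bmp4 at 0.43 and Acvr2b at 0.46, more than before the removal. The part of GC content in the uncalled members was not tested further.

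**Figure D4:**
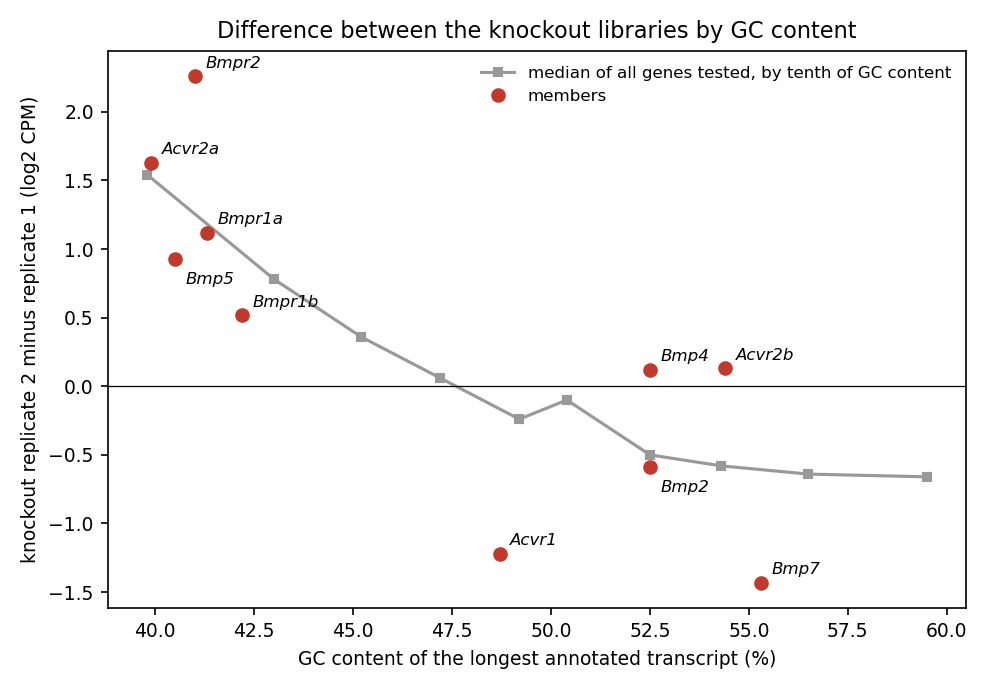
Log2 difference of knockout replicate 2 minus replicate 1 against transcript GC content in percent, for all genes as medians of 10 equal groups and for the 10 members as labelled points. The medians fall from 1.54 to -0.66, and Bmpr2 (2.26) and Acvr2a (1.63) lie at the low-GC end.

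The calls of Acvr2b and Bmp4 held when that trend entered the DESeq2 fit as an offset. Acvr2b then had -1.14 and -0.79 against flox and Cre controls (DESeq2 adjusted p = 0.00447 and 0.0401), and Bmp4 had -1.17 against Cre controls (adjusted p = 0.00733). Called lower under this offset were 1.22 and 2.42% of all genes. Bmpr1b had -1.38 in the knockout against flox controls (adjusted p = 5.48e-04) and 1.51 between the control groups (adjusted p = 8.88e-06). Bmp5, Bmp7, Bmpr1a, Bmpr2, Acvr1 and Acvr2a were not called under it against either control group.

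Summed markers of some other cell types differed between the groups, and the sums were not tested. Summed CPM of 6 cushion mesenchyme markers was 1220 to 1640 in the knockout, 2430 to 2670 in the flox controls and 2200 to 2370 in the Cre controls, with all 6 log2 changes below 0 in both comparisons. For 7 endocardial markers the sums were 583 to 981, 1110 to 1310 and 1060 to 1150, with 6 of 7 log2 changes below 0 in both comparisons. Knockout replicate 2 had the lower sum, with Cdh5, Kdr and Nfatc1 at 39.1, 50.5 and 17.5 CPM. In knockout replicate 1 these were at 233, 167 and 83.4 CPM, and they, Pecam1 and Emcn lay within their control ranges. Tek (148 CPM) and Npr3 (121 CPM) lay below theirs in replicate 1. Of the cushion markers DESeq2 called 1 in each comparison, Vcan. It had 1010 and 967 CPM in the knockout libraries and 1370 to 1650 in the controls, and made up most of the cushion sum in every library. With a gene length offset in DESeq2 the Vcan call was lost (adjusted p = 0.995 and 0.932). DESeq2 called 0 endocardial markers against either control group. Markers of the outflow tract and second heart field (5 of 6 measured) summed to 83.8 to 139, 169 to 185 and 110 to 147. The sums for 5 atrioventricular canal markers were 124 to 168, 149 to 162 and 119 to 142, and for 6 epicardial markers 299 to 368, 295 to 304 and 294 to 354. The sums for 6 atrial markers were 4520 to 8320, 3370 to 4040 and 3920 to 4360, and for 6 erythroid markers 2950 to 14100, 3680 to 4080 and 4310 to 8010. Of these lists DESeq2 called Isl1 lower against Cre controls (-2.45, adjusted p = 0.00406). Stard10 was called higher against flox and Cre controls (1.64 and 2.47, adjusted p = 0.00747 and 2.93e-08), and Myl7 against flox controls (1.20, adjusted p = 0.0145). Kcne1 (0.76, adjusted p = 0.0165) and Tcf21 (0.46, adjusted p = 0.0492) were called higher against Cre controls. The part of these cell types in the lower Bmp4 and Acvr2b was not tested.

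The genes whose profiles over the 7 libraries were most like each member were found by the root mean square difference of centred log2 CPM. Among 10806 candidates, Flrt3 (0.15), Robo2 (0.17) and Pdgfc (0.20) were nearest to Bmp4. Zhx3 (0.10), Trim56 (0.10) and Hmcn1 (0.11) were nearest to Acvr2b. Slc26a10 (0.31), Pirt (0.31) and Adamts12 (0.33) were nearest to Bmpr1b, at larger distances. The nearest gene to each of the other 7 members lay at 0.14 for Bmp2 (Kcna5), 0.07 for Bmp7 (Shmt2), and 0.03 to 0.04 for Bmp5 (Arf5), Bmpr1a (Zfp68), Acvr1 (Grb10), Bmpr2 (Zfp932) and Acvr2a (Hectd2). Within the family the closest pairs were Bmpr1a with Acvr2a (0.21) and Bmpr2 with Acvr2a (0.22).

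Other genes of the pathway were drawn from 6 lists of 88 genes, of which 71 were measured and tested. EdgeR called 0 of them in each comparison, with 9, 11 and 1 at an unadjusted p below 0.05 against flox controls, against Cre controls and between the controls. With 8.36, 15.4 and 3.13% of all genes below that p, the 11 of 71 against Cre controls were near the background. DESeq2 called 1 higher and 3 lower against flox controls (5.63% of the 71) and 3 higher and 4 lower against Cre controls (9.86%), and 0 between the controls. Of all genes, DESeq2 called 2.21, 4.05 and 0.533% in those comparisons. The median edgeR log2 change of these genes was -0.26 and -0.32 against flox and Cre controls, beside 0.02 and -0.00 for all genes and -0.10 and 0.16 for the 10 members.

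Among 19 measured extracellular antagonists and modulators, DESeq2 called 1 lower against flox controls, and 2 lower and 2 higher against Cre controls. Smoc1, a secreted matricellular BMP modulator, had 2.41 and 1.75 CPM in the knockout libraries and 8.11 to 12.3 CPM in the 5 controls. It fell by DESeq2 (-2.0 and -2.36, adjusted p = 3.93e-08 and 4.08e-14) and kept both calls without any 1 library. Against Cre controls Fstl3, an activin-binding follistatin-like protein, fell (-1.02, DESeq2 adjusted p = 0.0141). Tll1, a tolloid protease that cleaves chordin, rose (1.29, adjusted p = 9.52e-05), as did the antagonist Chrdl1 (1.47, adjusted p = 0.0115). The Tll1 call was lost without Cre control replicate 1 or 2 (adjusted p up to 0.0736), and the Chrdl1 and Fstl3 calls without each library other than knockout replicate 1 (adjusted p up to 0.394 and 0.347).

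**Figure D5:**
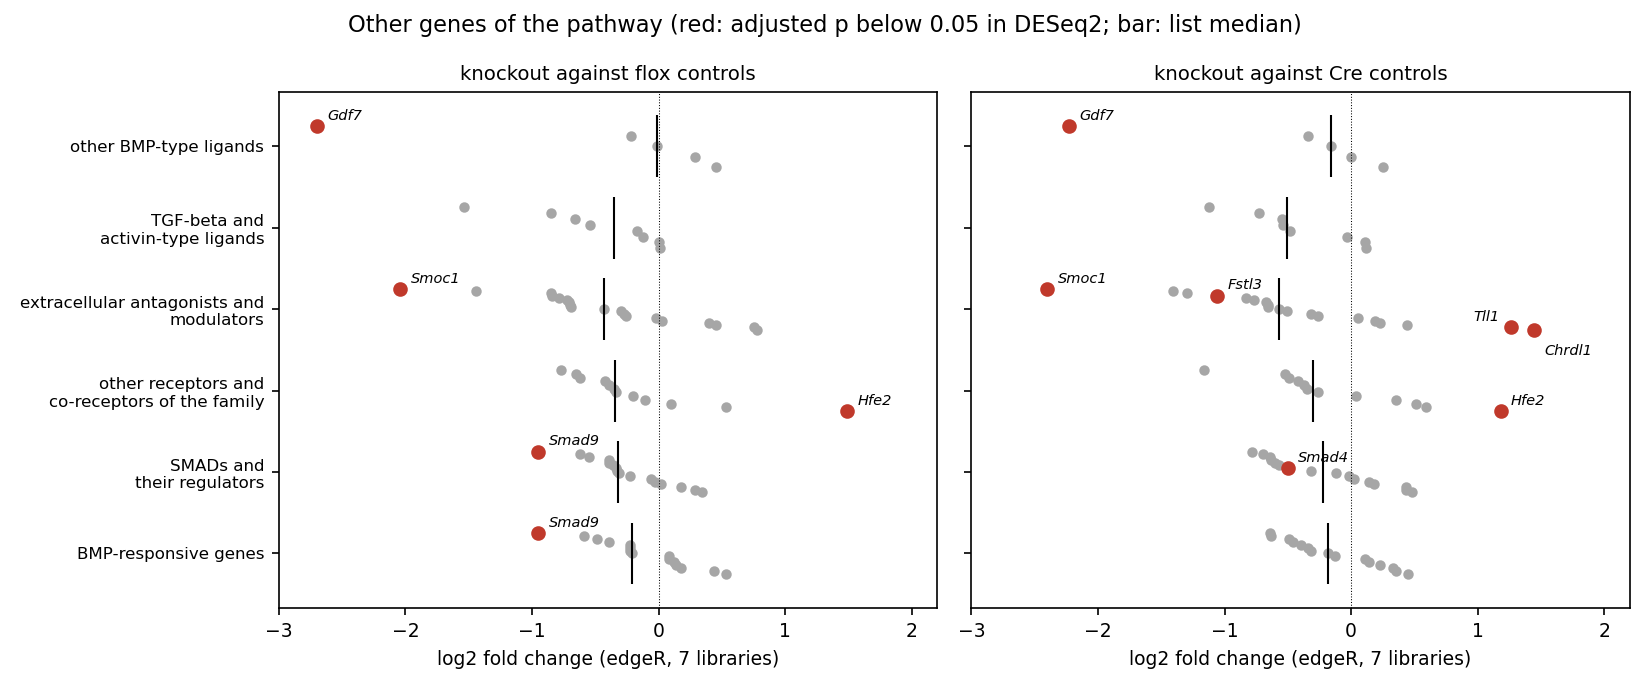
edgeR log2 fold change of each measured gene of the 6 pathway lists against flox controls and Cre controls, with the list median as a bar and DESeq2 calls in red. The list of antagonists and modulators has medians of -0.43 and -0.57, with Smoc1 at the low end of both panels.

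Of 5 other BMP-type ligands measured, DESeq2 called Gdf7, a ligand of the BMP subgroup. Gdf7 had 0.209 and 0.301 CPM in the knockout libraries, 1.37 and 1.91 CPM in the flox controls, and 0.691, 1.11 and 1.74 CPM in the Cre controls. It fell by 2.69 and 2.22 on the log2 scale against flox and Cre controls (DESeq2 adjusted p = 0.0105 and 0.027). Omitting flox control replicate 1, flox control replicate 2 or Cre control replicate 2 ended the call against flox controls (adjusted p = 0.234, 0.708 and 0.103), and DESeq2 gave no adjusted p without knockout replicate 2. Against Cre controls it was kept only without Cre control replicate 1 (adjusted p = 0.048). Bmp10, with 109 and 59.9 CPM in the knockout libraries and 64.8 to 105 in the controls, was not called (edgeR adjusted p = 0.751 and 0.998). None of 8 measured TGF-beta and activin-type ligands was called by edgeR or DESeq2 on all 7 libraries. Inhba, which encodes an activin subunit, had 3.53 and 9.57 CPM in the knockout libraries and 9.63 to 20.8 in the controls, below all of them. Its edgeR log2 changes were -1.54 and -1.12, and DESeq2 with a gene length offset called it (adjusted p = 0.016 and 0.0428, against 0.134 and 0.163 without). Tgfb2, which encodes a TGF-beta ligand, had 143 and 71.5 CPM in the knockout libraries and 107 to 164 in the controls.

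Of 12 further receptors and co-receptors, Hfe2, the BMP co-receptor hemojuvelin, was called. It had 50.3 and 60.5 CPM in the knockout libraries and 15.6 to 28 CPM in the 5 controls, and it rose by 1.52 and 1.2 (DESeq2 adjusted p = 2.58e-04 and 0.00159). Omission of flox control replicate 2 ended the call against flox controls (adjusted p = 0.254), and that against Cre controls when replicate 1 (0.121) or 3 (0.163) of that group was omitted. Of 16 SMADs and regulators, Smad9 (Smad8), a receptor SMAD of the BMP branch, fell against flox controls (-0.92, DESeq2 adjusted p = 0.0222). Smad4, the common SMAD, fell against Cre controls (-0.47, DESeq2 adjusted p = 0.00997). Both calls were lost without any 1 of the 5 controls, with adjusted p up to 0.999 and 0.533, and kept without either knockout library. A gene length offset in DESeq2 also ended both (adjusted p = 0.213 for Smad9 and 0.164 for Smad4).

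The transcriptional readouts of BMP signalling gave no further call. Of 15 measured BMP-responsive genes, Smad9 was the one called by DESeq2, against flox controls. Id1, Id2 and Id3, inhibitors of basic helix-loop-helix factors that BMP signals induce, had edgeR log2 changes of 0.08 to 0.18 against flox controls and 0.11 to 0.33 against Cre controls, and adjusted p of at least 0.596. Id2 had 139 and 330 CPM in the knockout libraries and 178 to 252 in the controls. Smad6, an inhibitory SMAD, had 115 and 67.1 CPM in the knockout libraries and 110 to 151 in the controls (edgeR adjusted p = 0.657 and 0.328). A p that misses the threshold in a design of 2 knockout libraries does not show that these genes were unaffected.

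The genes lie, in the deposited mm10 coordinates, at chr2:133552159-133562896 (Bmp2, plus strand), chr14:46383520-46390599 (Bmp4, minus), chr9:75775365-75899017 (Bmp5, plus) and chr2:172868012-172940321 (Bmp7, minus). The type I receptor genes lie at chr14:34411068-34502546 (Bmpr1a, minus), chr3:141837136-142169228 (Bmpr1b, minus) and chr2:58446438-58566828 (Acvr1, minus). The type II receptor genes lie at chr1:59764279-59878081 (Bmpr2, plus), chr2:48814109-48903264 (Acvr2a, plus) and chr9:119402501-119433506 (Acvr2b, plus). Use of strand in counting is not given in the sources used here, so reads from a gene and from an overlapping antisense gene cannot be told apart. Annotated exons of other genes on the opposite strand overlap 23.1% of the exon length of Bmp5 (Gm26903), 7.76% of Acvr2a (Orc4), 4.46% of Bmp4 (Gm15217) and 2.77% of Bmpr1a (Gm17110), and none were found for Acvr2b or Bmpr1b.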

How the data were processed

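RNA isolation and library construction were done by a contract laboratory, per the labels. Tools listed in the submitters' processing notes are the aligner STAR (2.4.2a), Subread (1.5.0) with featureCounts, and edgeR, with the build mm10. The annotation and strand setting are not given in the sources used here. Raw counts were deposited as 1 table with exon lengths. Its other columns are the authors' own log2 ratios with a p-value and false discovery rate, knockout over Cre control.

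Groups came from the genotype labels. All 7 libraries were fitted in 1 model with edgeR 4.0.16 (TMM scaling, filterByExpr, robust quasi-likelihood, R 4.3.3). Of 13701 genes, 13695 were tested, with a Benjamini-Hochberg adjusted p below 0.05 as the threshold over all of them. The SE given for edgeR was derived from its test, as the absolute log2 change divided by the square root of the quasi-likelihood F statistic. CPM are TMM-scaled (prior count 2 for log2 CPM). Counting error is larger for genes with few counts, such as Bmpr1b. DESeq2 1.42.0, limma 3.58.1 (voom) and offsets by gene length, alone or with GC content (mgcv 1.9.3, GC found for 96.3% of genes) were alternatives. GC came from the longest GENCODE transcript of a gene, and genes with none took the median value. The scripts were tested on simulated data.

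The members, lists and rules were chosen with earlier results of these data known. Named were all members, called list genes (up to 4 per list and comparison, or else the 2 highest per kilobase) and the 3 most similar genes among those of at least 5 CPM. Inhba, Myh7, Nppa and some uncalled list genes were named after their values were seen.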

Additional observations from a re-analysis of the deposited data

How the results depend on the processing

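With 2 or 3 libraries a group, calls were few. Against flox controls, against Cre controls, between the controls and against both control groups, edgeR called 0 members in each. DESeq2 called 2, 2, 1 and 1, with a length offset 1, 2, 1 and 1, and with a length and GC offset 2, 2, 1 and 1. Of all genes, DESeq2 called 2.21, 4.05 and 0.533% in the 3 comparisons, and with the length offset 1.34, 3.45 and 0.577%. The share of all genes called against both control groups was not computed for any setting. The length and GC offset gave 2.6 and 5.6% of all genes against flox and Cre controls. With only the compared groups, edgeR called 0, 0, 1 and 0 and DESeq2 0, 1, 1 and 0 (0.0586, 1.95 and 2.89% of all genes). Of the pathway genes, DESeq2 called 4 and 7 against flox and Cre controls, 5 and 7 with the length offset, 9 and 9 with the length and GC offset, and 0 and 3 with only the compared groups. EdgeR called 0 and 1 of them with either offset. RLE scaling, no scaling, limma-voom, no robust estimation, no filter, a 1 CPM filter and embryo sex as a covariate gave 0 member calls. Leaving out 1 library, edgeR called 0 to 7, 0 to 8, 0 to 1 and 0 to 6 members, and DESeq2 0 to 8, 0 to 8, 0 to 1 and 0 to 7. Pathway calls ran from 0 to 42 and 0 to 48 by edgeR and from 1 to 39 and 2 to 49 by DESeq2 (12 against flox controls without knockout replicate 2). The highest counts came without knockout replicate 1, where 55.1 and 64.3% (edgeR) or 52.6 and 61.3% (DESeq2) of all genes were called. Called reversals were Bmp7 without knockout replicate 1 (edgeR -0.60 and -0.80, DESeq2 -0.58 and -0.78, log2, against flox and Cre controls, beside 0.85 and 0.66 without knockout replicate 2) and Bmpr2 against flox controls without knockout replicate 2 (DESeq2 -0.86). The cause was not tested. The length and GC offset, the DESeq2 fits of compared groups, flox against all Cre-carrying libraries and the control-library omissions for Bmpr1b were added after seeing the data. No paired analysis was possible because the labels number no replicates across groups: the titles carry sample identifiers, and the prefix that both knockouts and 1 flox control share leaves 1 control to compare. Against that control alone, with no test, Bmpr1b was at -1.60, Acvr2b at -1.16 and Bmp4 at -0.82 (log2).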
